A study of Mus musculus with 4 samples.

Results

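Imprinted genes were examined on 4 microarrays of GC-1 cells, a line immortalised from spermatogonia of the mouse testis. The members were a list of 40 names of imprinted genes, taken by the gene name that the array design gives each probe. Probes carried 39 of the 40 names, out of 37074 names on the array, and these were 90 of its 56605 probes. Zac1, an older name of Plagl1, had no probe of its own, and Plagl1 stands for both. Of the 39 genes, 14 are known in mouse as maternally expressed and 23 as paternally expressed. Gnas and Ddc were kept apart, because the expressed allele depends on the isoform or the tissue.

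The cells received a pCMV plasmid that carried murine Hdac6 with a myc/DDK tag under the CMV promoter, or the empty vector, and were harvested after 48 h. Hdac6 is a mainly cytoplasmic deacetylase of tubulin and other proteins. Each group had 2 arrays (empty vector 1 and 2, Hdac6 vector 1 and 2), all Cy3-labelled from total RNA by way of an oligo-dT primer. Whether the 2 samples of a group were separate cultures is not stated, so a p-value covers the spread of these samples alone, and that spread may be technical. The host cells keep their own Hdac6 gene, and its probe, at 3.31 and 2.83 with the empty vector, against 2.62 and 3.24 with the Hdac6 vector (log2 signal minus the 75th percentile of the array), differed by less than the spread between arrays. The difference was -0.14 (95% interval -0.79 to 0.51, limma adjusted p = 1.00). Whether that probe lies in the part of the gene that the plasmid carries was not tested.

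At an imprinted gene, one parental allele is silenced by a mark set in the germ line, usually DNA methylation of a control region, and the other allele is transcribed. Imprinted genes lie in clusters that often hold a long non-coding RNA, such as Airn or Kcnq1ot1, whose transcription keeps neighbouring genes silent on the same chromosome. In the male germ line the inherited marks are erased early and a paternal pattern is laid down before birth, so spermatogonia carry the paternal pattern on both chromosomes. These arrays measured RNA of both alleles together. They say which genes had RNA, and not from which allele it came. In such bulk RNA, fewer expressing cells and less RNA per cell cannot be told apart.

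Several results turned on the probes for the non-coding RNAs, whose 60-base sequences, 5′ to 3′ as the array design gives them, are shown first. Capitals mark runs of at least 20 bases that also occur, on either strand, in the RefSeq promoter window (GRCm38.p6) of a gene with another name. The first 4 belong to maternally expressed RNAs and the next 4 to paternally expressed antisense RNAs.
Meg3 A_51_P455997: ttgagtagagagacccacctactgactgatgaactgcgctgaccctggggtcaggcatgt
Meg3 A_55_P2736854: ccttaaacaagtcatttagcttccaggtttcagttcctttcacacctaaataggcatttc
Mirg A_66_P121059: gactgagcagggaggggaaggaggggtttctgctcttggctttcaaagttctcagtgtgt
H19 A_30_P01026972: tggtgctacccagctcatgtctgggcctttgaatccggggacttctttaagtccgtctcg
Airn A_55_P2122633: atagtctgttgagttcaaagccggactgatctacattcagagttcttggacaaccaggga
Airn A_55_P2055199: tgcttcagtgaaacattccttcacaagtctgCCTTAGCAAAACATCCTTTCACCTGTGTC
Kcnq1ot1 A_55_P2726560: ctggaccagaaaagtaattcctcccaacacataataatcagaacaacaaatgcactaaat
Kcnq1ot1 A_55_P2726757: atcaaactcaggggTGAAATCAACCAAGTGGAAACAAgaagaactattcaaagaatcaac
Per the files (build mm9), the Meg3 probes lie at chr12:110809678-110809737 and chr12:110783470-110783529, both on the plus strand, and the Mirg probe at chr12:110987569-110987628, also on the plus strand. The H19 probe lies at chr7:149762173-149762232 on the minus strand. The Airn probes lie at chr17:12944784-12944843 and chr17:13008078-13008137 on the plus strand, and the Kcnq1ot1 probes at chr7:150410464-150410523 and chr7:150409006-150409065 on the minus strand. The exon or UTR that each probe falls in was not analysed here. Of the 90 probes of imprinted genes, 2 held such a shared run, Airn A_55_P2055199 (3 other genes) and Kcnq1ot1 A_55_P2726757 (1 other gene). Among all probes the share was 2.58%. A shared run is a description of the sequence, and hybridisation of other RNAs to these probes was not tested. Only promoter windows were searched, so a probe without capitals may still share runs with repeats or transcripts elsewhere in the genome.

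A level here is the log2 of a probe's processed signal minus the array's 75th percentile, so 0 is the level of that percentile. A probe was detected on an array if the scanner software flagged it well above background, and a gene was detected if at least 1 of its probes was. Levels are compared within a probe across arrays and not between probes. Exceptions are the choice of a gene's brightest probe and the summed levels of the marker lists, to which bright probes contribute most.

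Most imprinted genes gave a signal in GC-1 cells with the empty vector. At least 1 probe was detected on both empty vector arrays for 29 of the 39 genes (74.4%), beside 63.0% of all names on the array. Counted over probes the imprinted genes stood close to the array as a whole, with 62.2% of their 90 probes and 61.8% of all probes detected on both empty vector arrays. By expressed allele, 11 of 14 maternally expressed genes, 16 of 23 paternally expressed genes, and both Gnas and Ddc were detected. The flag accepts weak spots. Where a signal of at least 4 times the array's lowest well-above-background signal was required, 21 genes remained (53.8%), beside 49.6% of all names. Those 21 were Airn, Cdkn1c, Copg2, Ddc, Dlk1, Gnas, Grb10, Igf2, Igf2r, Impact, Kcnq1ot1, Mcts2, Mirg, Mkrn3, Peg3, Phlda2, Plagl1, Slc22a18, Ube3a, Usp29 and Zrsr1.

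**Figure D1:**
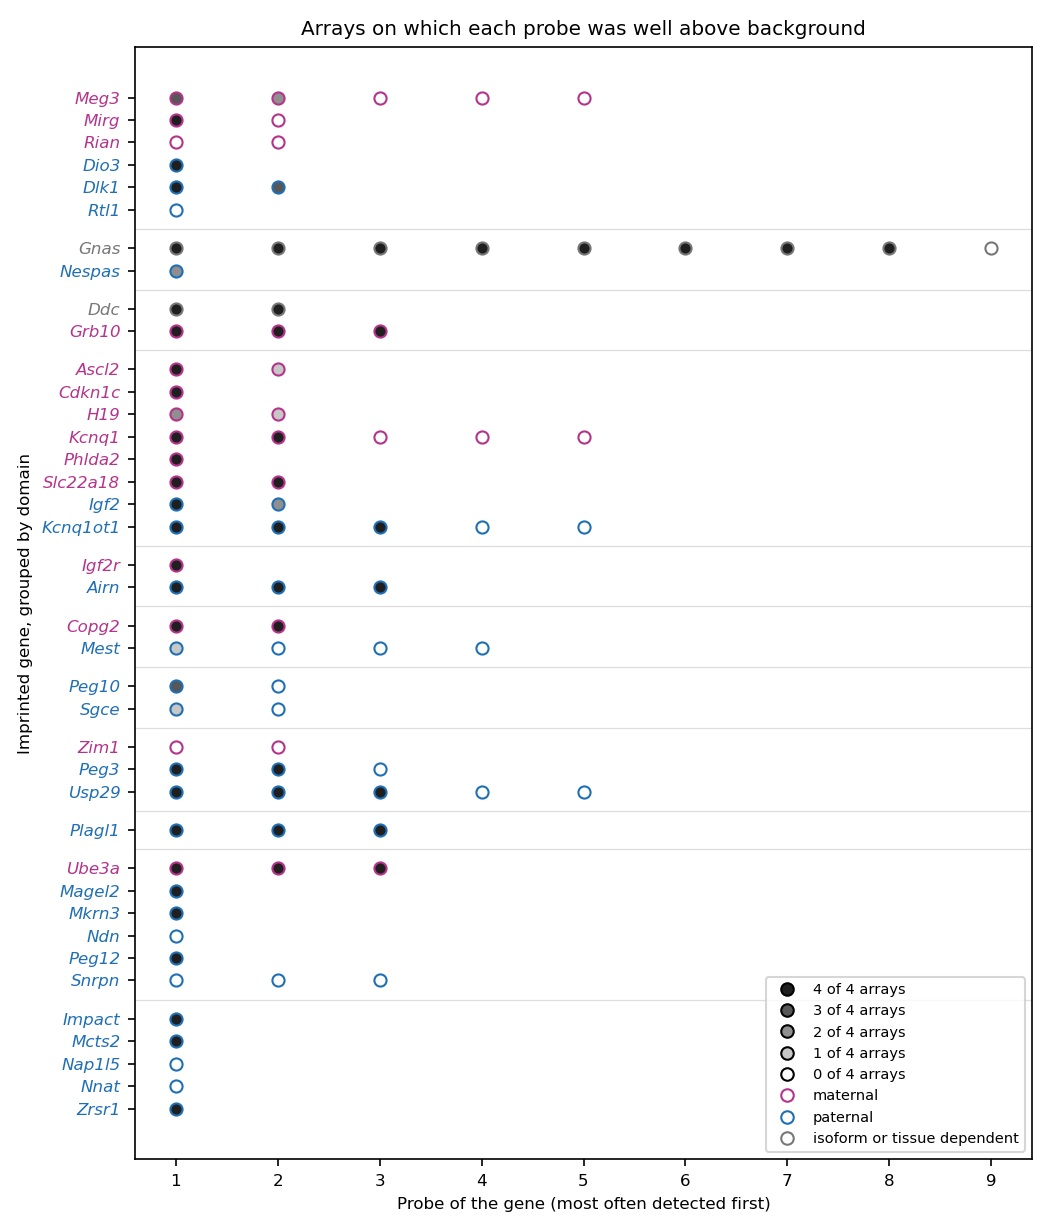
Each circle is 1 probe of an imprinted gene, filled darker the more of the 4 arrays it was well above background on. Rows are the 39 genes grouped by domain, coloured by expressed allele, and the horizontal axis only numbers the probes of a gene. The Dlk1-Dio3 rows at the top hold both filled and empty circles, while all 3 Snrpn probes are empty.

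The 10 genes not detected on both empty vector arrays fell into 2 kinds. No probe was well above background on any of the 4 arrays for 7 of them: the maternally expressed Rian, a host of small nucleolar RNAs, and Zim1, a zinc finger gene, and the paternally expressed Rtl1, Nnat, Snrpn, Ndn and Nap1l5. Rtl1 derives from a retrotransposon and is needed in the placenta, Nnat encodes neuronatin, and Ndn encodes the MAGE protein necdin. The other 3 were detected on 1 or 2 arrays. Mest, a hydrolase-fold protein gene, and Sgce, epsilon-sarcoglycan, were detected on empty vector 1 only. Of the H19 probes, A_30_P01026972 was detected on empty vector 1 (-5.54) and Hdac6 vector 1 (-5.41), and the other on empty vector 1 only (-5.33). The Snrpn probe A_66_P118076 was printed as 10 spots, and 5, 3, 1 and 2 of these were flagged on empty vector 1, empty vector 2, Hdac6 vector 1 and Hdac6 vector 2, 11 of 40 spots in all. A repeated probe counted as detected where most of its spots were flagged, so Snrpn, a splicing protein gene, was just under that rule on empty vector 1.

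Meg3, Nespas and Peg10 were detected with the empty vector, but no single probe of theirs was detected on all 4 arrays, which leaves 26 genes detected throughout. With the Hdac6 vector, 2 of these probes were below the flag on both arrays, Meg3 A_55_P2736854 and the Nespas probe, and their values are given with their domains. The lowest well-above-background signal of an array stood at -6.19 and -5.92 with the empty vector, against -5.82 and -5.33 with the Hdac6 vector, relative to the 75th percentile. The array with the weakest signal, Hdac6 vector 2, thus had the highest detection limit on this scale. Its 75th percentile was a signal of 453, beside 666, 693 and 815 on the other 3, and 61.0% of its spots were flagged well above background, beside 64.3% to 66.4%. These limits are the lowest flagged signals and are not strict. H19 A_30_P01026972 read -5.05 on Hdac6 vector 2, above its limit, and was not flagged. The part of these limits in the losses on the Hdac6 vector arrays was not tested.

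Of the list, 29 genes and 56 of 90 probes were bright enough to test, having a probe detected on both arrays of at least 1 group. For 6 of the 56 probes, 3 of them the brightest of their gene (Meg3, Nespas and Peg10), only the empty vector arrays met this rule, so a lower value with the Hdac6 vector was partly built in. None of the 56 probes was called different between the Hdac6 vector and the empty vector by limma at an adjusted p under 0.05, on an array where 0.0114% of 35213 tested probes were called. By the brightest tested probe the count was 0 of 29 genes, beside 0.00851% of tested names. Unadjusted p was under 0.05 for 3 of the 56 probes, beside 1.83% of all tested probes. They were 1 probe each of Ascl2, Meg3 and Gnas, and the Meg3 probe is among those 6. The adjusted p, over all tested probes, was 1.00 for every imprinted gene, and it is given again only beside an unadjusted p. Taking the brightest tested probe of each gene, 13 genes were above 0 and 16 below, with a median difference of -0.05 on the log2 scale (range -0.91 to 0.88). For all 23495 tested names the median was 0.00, with 50.7% above 0. The median of the 11 maternally expressed genes was 0.03 (6 above 0, 5 below) and that of the 16 paternally expressed genes -0.07 (6 above, 10 below). These medians have no fixed sign. The maternal median was -0.06 with median scaling, -0.18 without Hdac6 vector 2, -0.09 in the authors' deposited table of log2 values and -0.01 with a gene's tested probes averaged. The paternal median was 0.02 with normexp background correction and without empty vector 2, 0.11 without Hdac6 vector 2 and -0.30 without Hdac6 vector 1.

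**Figure D2:**
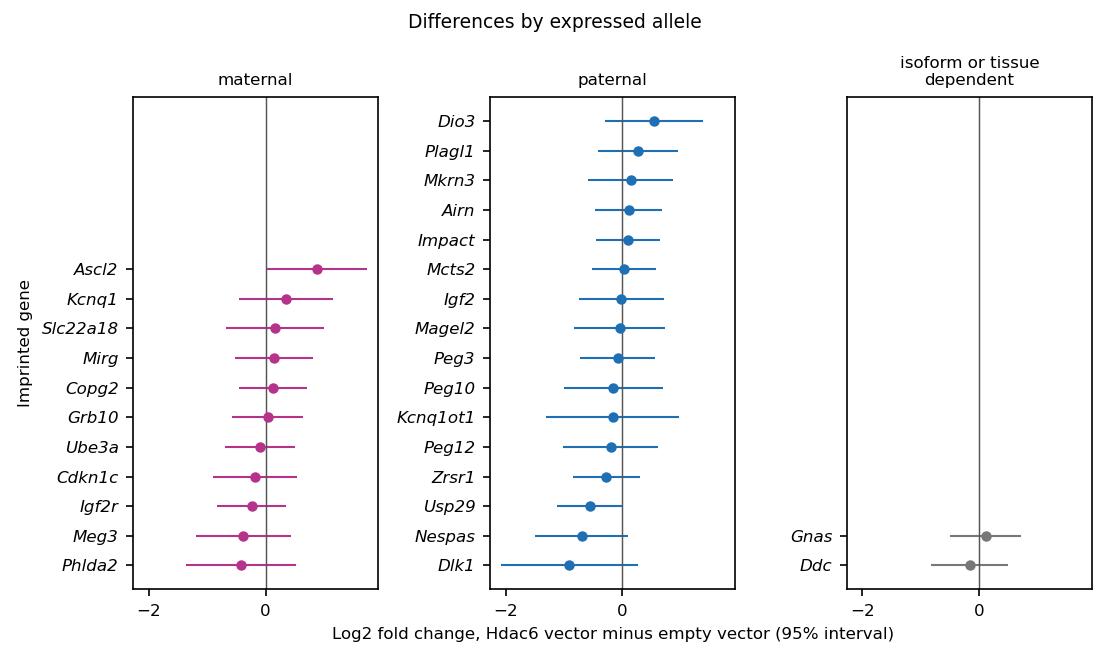
Points are the log2 difference, Hdac6 vector minus empty vector, of the brightest tested probe of each imprinted gene, and bars are 95% intervals from limma (2 arrays a group). Only the Ascl2 interval lies above 0, and its adjusted p is 1.00. Dlk1 has the lowest value, at -0.91. Meg3, Nespas and Peg10 were tested only through the empty vector arrays, so their bars are drawn but not read.

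Arrays of 1 group typically stood farther apart than the groups did. The median size of the difference was 0.16, while the 2 empty vector arrays stood a median of 0.29 apart and the 2 Hdac6 vector arrays 0.37 apart. For all tested names these were 0.17, 0.27 and 0.33. In 24 of the 29 genes the difference was smaller than the gap within at least 1 group. That rule sets a difference of means against the larger gap between single arrays. Its share over all tested names was not counted, so the count is no result about imprinted genes. The groups did not overlap in 7 of the 29, beside 25.2% of all tested names. Both Hdac6 vector arrays lay above both empty vector arrays for Ascl2, Dio3, Mkrn3 and Plagl1 (background 12.3%), and below them for Meg3, Nespas and Usp29 (12.9%). Meg3 and Nespas passed the filter only through the empty vector arrays, and the sign of their differences, and that of Plagl1, turned under other processing. Over probes the count was 13 of 56, beside 25.0%. These shares are near the background. The 95% intervals lay within a 2-fold change either way for 18 genes and reached past it for 11, so a 2-fold change is outside the interval for the former and not for the latter. Among the 11 are Meg3, Nespas and Peg10, whose intervals are not read because they were tested only through the empty vector arrays.

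**Figure D3:**
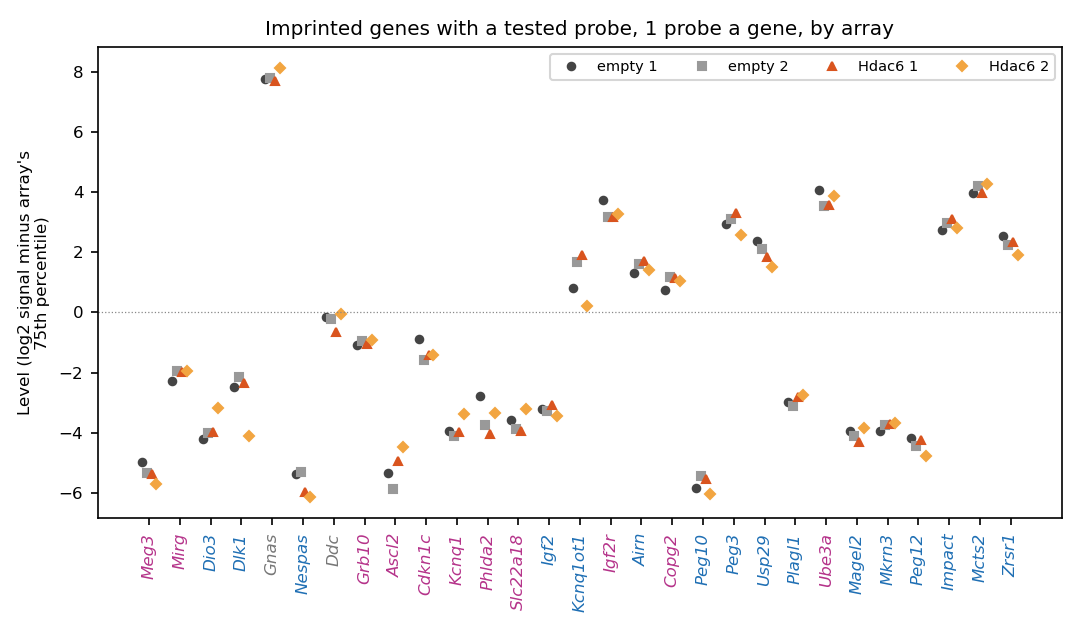
Each gene with a tested probe is shown by its brightest tested probe, with 1 point for each of the 4 arrays, in the order of the domains; the axis is log2 signal minus the array's 75th percentile. Heights of different genes are of different probes and are not comparable, but within a gene the groups overlap for all but 7 of the 29, and Dlk1 has 1 point apart, Hdac6 vector 2 at -4.10.

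The cluster of H19, Igf2 and Kcnq1 on chromosome 7 held 8 of the genes, with 7 detected. Igf2, the growth factor, stood at -3.21 and -3.27 with the empty vector, against -3.07 and -3.45 with the Hdac6 vector (chr7:149837115-149837174, minus strand). The 2 groups overlapped, with a difference of -0.02 (95% interval -0.75 to 0.71). A second Igf2 probe was detected on the empty vector arrays only, at -5.83 and -5.60, and read -5.88 and -5.40 on the Hdac6 vector arrays. The bound on its fold came out under 1, so no fold is given. H19, the non-coding RNA that shares enhancers with Igf2, was read at -5.54 and -5.98 with the empty vector, against -5.41 and -5.05 with the Hdac6 vector by A_30_P01026972, and at -5.33, -6.03, -6.08 and -5.71 by the other. Both probes were too dim to test.

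Among the maternally expressed growth restrictors of this cluster, Cdkn1c, a cyclin-dependent kinase inhibitor, stood at -0.88 and -1.58 with the empty vector, against -1.41 on both Hdac6 vector arrays. Empty vector 1 was the high one, and the difference was -0.18 (-0.90 to 0.53). Phlda2, which limits placental growth, gave -2.80 and -3.73 against -4.04 and -3.34, a difference of -0.42 (-1.37 to 0.52) between overlapping groups. Slc22a18, a transporter-family gene, read -3.59, -3.88, -3.96 and -3.20 with its first probe and -4.32, -3.94, -4.31 and -4.23 with its other. The probes gave differences of 0.15 (-0.68 to 0.99) and -0.14.

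Ascl2, a basic helix-loop-helix factor needed for the placenta, was the gene with the smallest unadjusted p by its brightest probe. A_66_P127335 (chr7:150176638-150176697, minus strand) stood at -5.33 and -5.87 with the empty vector, against -4.94 and -4.49 with the Hdac6 vector. Both Hdac6 vector arrays were above both empty vector arrays, all 4 close to the detection limit. The difference was 0.88 (0.03 to 1.74, unadjusted p = 0.0436, adjusted p = 1.00 by limma), and 0.30 with normexp background correction. The other Ascl2 probe, A_55_P2033725 (chr7:150152734-150152793, minus strand), was detected on empty vector 1 only and was too dim to test. It read -4.21 and -6.13 with the empty vector, against -5.89 and -5.63 with the Hdac6 vector. Its mean was lower with the Hdac6 vector (-5.76 against -5.17), the other way from A_66_P127335.

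Kcnq1, a potassium channel subunit, was weak at the 2 tested probes, which read -3.95, -4.10, -3.99 and -3.36, and -3.85, -4.24, -4.51 and -3.88, in the order empty vector 1 and 2, Hdac6 vector 1 and 2. The differences were 0.35 (-0.45 to 1.15) and -0.15, of opposite sign, and its other 3 probes were detected on no array. Its antisense RNA Kcnq1ot1 had 3 detected probes. A_55_P2726560 read 0.80, 1.67, 1.90 and 0.22, A_55_P2726757 read 0.37, 1.34, 1.66 and 0.19, and A_55_P2717618 read -4.61, -3.80, -3.37 and -4.72. All 3 probes were high on empty vector 2 and Hdac6 vector 1 and low on the other arrays, so the arrays split across the groups and not between them. The difference at the first was -0.17 (-1.30 to 0.96), and it was 0.67 without Hdac6 vector 2, 0.27 without empty vector 2 and 0.02 with the tested probes averaged. The 2 remaining Kcnq1ot1 probes were detected on no array. Whether A_55_P2726560 and A_55_P2726757 also read RNA from elsewhere in the genome was not tested.

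**Figure D4:**
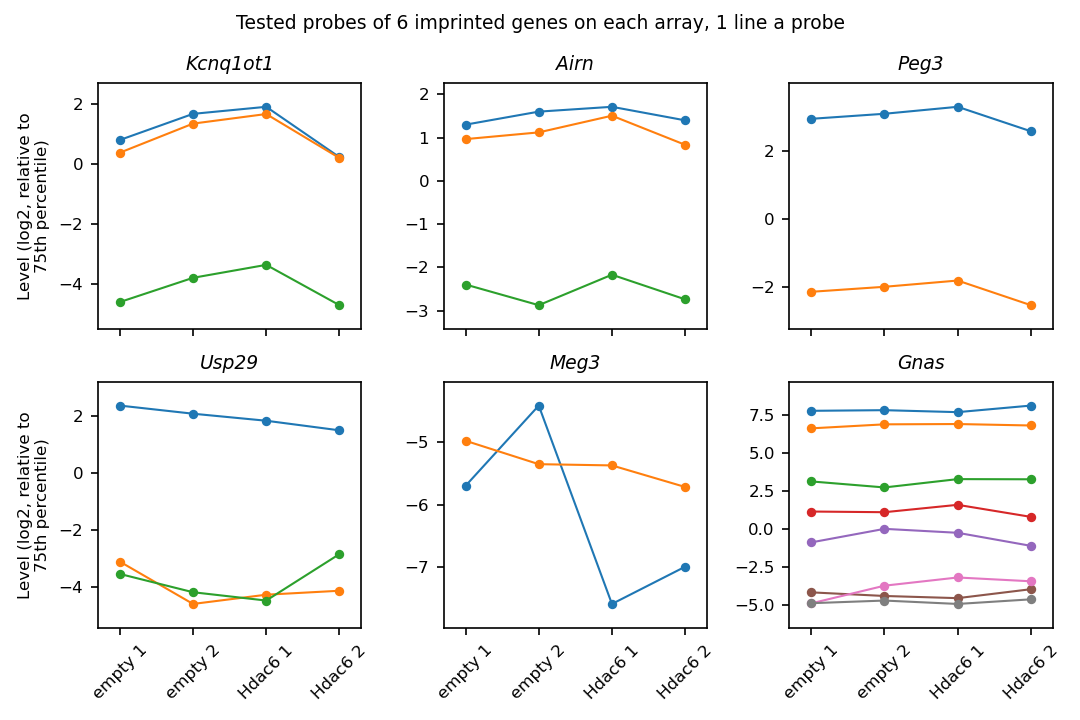
Lines join the levels (log2, relative to the 75th percentile) of 1 probe on the 4 arrays for 6 imprinted genes, each panel with its own vertical scale. The Kcnq1ot1 lines rise and fall together across both groups, while the Meg3 lines part at the Hdac6 vector arrays, where A_55_P2736854 was well above background on neither array and A_51_P455997 on 1.

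At Igf2r and Airn on chromosome 17, both RNAs were detected on all 4 arrays. Igf2r, the receptor that clears Igf2 to the lysosome, stood at 3.74 and 3.18 with the empty vector, against 3.18 and 3.26 with the Hdac6 vector, a difference of -0.24 (-0.83 to 0.35). Airn, the RNA transcribed antisense through it from the paternal allele, read 1.30 and 1.60 against 1.71 and 1.40 at A_55_P2122633, a difference of 0.11 (-0.46 to 0.67). The probe with the shared run, A_55_P2055199, read 0.963, 1.118, 1.504 and 0.832, and the third read -2.40, -2.87, -2.17 and -2.74. Their differences were 0.13 (-0.51 to 0.77) and 0.18. All 3 Airn probes had their highest value on Hdac6 vector 1, and at none were the groups apart.

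In the Dlk1-Dio3 cluster on chromosome 12, 4 of 6 genes were detected, 2 from each parental set, and Rian and Rtl1 on no array. Dlk1, a transmembrane protein related to the Notch ligands, stood at -2.50 and -2.14 with the empty vector, against -2.35 and -4.10 with the Hdac6 vector (chr12:110698428-110698487, plus strand). Hdac6 vector 2 alone was low, and Hdac6 vector 1 lay between the empty vector arrays. The difference of -0.91 (-2.07 to 0.26) was -0.03 without Hdac6 vector 2 and -0.36 with normexp background correction. A second Dlk1 probe read -4.16 and -5.05 against -5.21 and -5.27, the last not well above background, a difference of -0.64. It was tested only through the empty vector arrays, so a lower value with the Hdac6 vector was partly built in. Dio3, the deiodinase that inactivates thyroid hormone, read -4.21 and -4.02 with the empty vector, against -3.97 and -3.19 with the Hdac6 vector. Its groups did not overlap, though Hdac6 vector 1 was close to empty vector 2, and its difference was 0.54 (-0.30 to 1.37) and 0.15 without Hdac6 vector 2.

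Of the maternally expressed RNAs of this cluster, Mirg, the host of a microRNA cluster, read -2.27 and -1.96 against -1.98 and -1.96, a difference of 0.15 (-0.52 to 0.81). Its other probe was detected on no array. Meg3 was dim at every probe. A_51_P455997 read -4.98 and -5.35 with the empty vector, against -5.37 and -5.71 with the Hdac6 vector, not well above background on Hdac6 vector 2, with a difference of -0.38.

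A_55_P2736854, the Meg3 probe that lies upstream of it, read -5.70 and -4.42 with the empty vector, against -7.58 and -6.99 with the Hdac6 vector. It was detected on both empty vector arrays and on neither Hdac6 vector array, so the level there has only a bound. Set at the detection limits, the Hdac6 vector signal was at least 1.43-fold below the bright group's mean of -5.06 (limma adjusted p = 1.00). The measured mean of the dim arrays was -7.29. Some spots above these limits were not flagged, so the bound is not strict. The empty vector arrays stood 1.28 apart, and the bound rested on empty vector 2: without it the ratio was 0.920, under 1, which is no bound. As the probe was tested only through the group where it is high, no interval is given. The other 3 Meg3 probes were detected on no array. With the tested Meg3 probes averaged the difference was -1.30, which takes in the readings of A_55_P2736854 below the detection limits. Both averaged probes were tested only through the empty vector arrays, so a lower value was partly built in and -1.30 is no measured size. With normexp background correction the difference at A_51_P455997 was 0.06.

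At the Gnas cluster on chromosome 2, 8 of the 9 Gnas probes were detected on all 4 arrays. The transcripts of this locus share most exons and differ in promoter, and include the stimulatory G protein alpha subunit, which most tissues make from both alleles. The brightest probe (chr2:174172010-174172069, plus strand) read 7.76 and 7.80 with the empty vector, against 7.67 and 8.10 with the Hdac6 vector, a difference of 0.11 (-0.51 to 0.72). Its neighbour read 6.61, 6.87, 6.89 and 6.79, with a difference of 0.10. The next 2 gave 0.34 (-0.20 to 0.89) at A_52_P112188, with 3.12, 2.72, 3.27 and 3.26, and 0.07 at A_55_P2939538, with 1.14, 1.09, 1.58 and 0.79. The groups did not overlap at A_52_P112188 and overlapped at the other 3 of these.

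Gnas probe A_55_P2081323 (chr2:174163501-174163560, plus strand) had an unadjusted p of 0.0435 (adjusted p = 1.00, limma). It read -4.90 and -3.74 with the empty vector, against -3.20 and -3.45 with the Hdac6 vector, with no overlap, and differed by 0.99 (0.04 to 1.95). The gap within the empty vector, from -4.90 to -3.74, was wider than that difference. The remaining 3 tested Gnas probes gave -0.24, 0.03 and 0.02. Nespas, the antisense RNA of this locus, read -5.38 and -5.31 with the empty vector, against -5.95 and -6.13, not well above background, with the Hdac6 vector. Set at the detection limits, the Hdac6 vector signal was at least 1.17-fold below the mean of -5.34 (limma adjusted p = 1.00). The measured mean on the dim arrays was -6.04, and this bound is not strict either. Without Hdac6 vector 1 the ratio was 0.989, under 1, which is no bound, and with normexp background correction the difference was 0.03. Like the Meg3 probe, it was tested only through the empty vector arrays, and the text gives no interval.

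At the Peg3 cluster on chromosome 7, Peg3, a zinc finger protein gene, read 2.94 and 3.09 against 3.29 and 2.58 at one probe and -2.14 and -1.99 against -1.81 and -2.53 at another, with differences of -0.08 (-0.72 to 0.56) and -0.10. At both probes the Hdac6 vector arrays lay on either side of the empty vector arrays. Usp29, a ubiquitin-specific protease gene that shares its promoter region with Peg3 on the opposite strand, read 2.38 and 2.10 against 1.85 and 1.51 at A_66_P130447 (chr7:6722710-6722769, plus strand). The groups did not overlap, and the difference was -0.56 (-1.12 to 0.00, unadjusted p = 0.0513 by limma). The same gene gave -0.35 and 0.20 at its other 2 tested probes, with -3.11, -4.60, -4.28 and -4.14 at the former and -3.55, -4.19, -4.48 and -2.85 at the latter. The tested probes of Usp29 thus differed in sign, and its other 2 probes were detected on no array.

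The gene Plagl1 on chromosome 10, a zinc finger transcription factor, had 2 probes whose groups did not overlap and that went opposite ways. A_55_P1961965 (chr10:12848421-12848480, plus strand) read -2.99 and -3.11 against -2.83 and -2.75, a difference of 0.26 (-0.43 to 0.95). A_55_P1961968 (chr10:12850832-12850891, plus strand) read -2.43 and -2.78 against -3.33 and -3.19, a difference of -0.66 (-1.38 to 0.05). The third gave 0.05. Of the 15 imprinted genes with more than 1 tested probe, 10 had probes of both signs. With its 3 probes averaged, the difference for Plagl1 was -0.11.

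On chromosome 7 in the Snrpn-Ube3a cluster, 4 of 6 genes were detected. Ube3a, a ubiquitin ligase gene that is imprinted in neurons, read 4.07 and 3.55 against 3.57 and 3.85, a difference of -0.10 (-0.69 to 0.50), and its other 2 probes gave 0.11 and -0.08. The paternally expressed neighbours Magel2, Mkrn3 and Peg12 were detected on all 4 arrays. Magel2, a MAGE-family gene, read -3.93 and -4.11 against -4.30 and -3.83, a difference of -0.05 (-0.83 to 0.73). Mkrn3, a makorin RING finger gene, read -3.93 and -3.75 against -3.71 and -3.68, a difference of 0.14 (-0.58 to 0.87) between groups that did not overlap by a small margin. Peg12, a retrogene of the Frat family, read -4.17 and -4.45 against -4.23 and -4.79, a difference of -0.20 (-1.01 to 0.62). Snrpn and Ndn, in the same cluster, were the ones below the flag.

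In the Mest-Copg2 and Peg10-Sgce domains, 1 partner was detected on both empty vector arrays and the other on empty vector 1 only. Copg2, a coatomer subunit gene, read 0.76 and 1.17 against 1.14 and 1.03, a difference of 0.13 (-0.45 to 0.70), beside Mest, whose 1 flagged spot stood at -5.75. Peg10, derived from a retrotransposon, read -5.84 and -5.44 against -5.55 and -6.04, the last not well above background, a difference of -0.15, beside Sgce, at -4.81 on empty vector 1 and not flagged well above background elsewhere. At chromosome 11, Grb10, an adaptor that dampens insulin receptor signalling, read -1.09 and -0.95 against -1.06 and -0.91, a difference of 0.03 (-0.57 to 0.64). Its 2 other probes gave 0.11 and -0.18. Ddc, the aromatic amino acid decarboxylase, read -0.16 and -0.23 against -0.67 and -0.04, a difference of -0.16 (-0.82 to 0.50), and 0.15 at its other probe. The empty vector arrays lay inside the range of the Hdac6 vector arrays for Ddc.

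Of the 5 single paternally expressed genes, 3 were detected with levels above the 75th percentile on all 4 arrays. Impact, which restrains the kinase Gcn2, read 2.73 and 2.98 against 3.09 and 2.81, a difference of 0.10 (-0.45 to 0.64). Mcts2, a retrocopy of Mcts1, read 3.97 and 4.21 against 3.96 and 4.28, a difference of 0.03 (-0.52 to 0.58). Zrsr1, a retrogene of the splicing factor gene Zrsr2, read 2.55 and 2.25 against 2.33 and 1.92, a difference of -0.28 (-0.85 to 0.30). In none of the 3 were the groups apart. Whether the Mcts2 and Zrsr1 probes also read their source genes was not tested. Nnat and Nap1l5, which like Mcts2 and Zrsr1 lie in introns of other genes, were detected on no array.

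RNA of most genes that set, read and keep imprints was detected. Of 30 such regulators listed, 27 were detected on both empty vector arrays, beside 63.0% of all names, and Dppa3, Ctcfl and Zfp42 were not. None of the 27 tested regulators was called by limma, and none had an unadjusted p under 0.05. Dnmt1, the maintenance methyltransferase, read 2.59 and 2.32 against 2.24 and 2.58, a difference of -0.04 (-0.60 to 0.51), and Uhrf1, which brings it to replicated DNA, 4.85 and 4.57 against 4.16 and 5.16, a difference of -0.05 (-0.80 to 0.70). Zfp57, the zinc finger protein that binds methylated imprint control regions, read -0.40 and 0.87 against 0.84 and -0.14, split across the groups like Kcnq1ot1, with a difference of 0.12 (-0.89 to 1.13).

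Its partner Trim28 read 5.50 and 5.55 against 5.32 and 5.55, a difference of -0.09 (-0.63 to 0.45). Ctcf, the insulator protein that acts at H19, gave -0.04 (-0.60 to 0.52). Among the de novo methylation genes, Dnmt3a gave -0.10 (-0.80 to 0.60), Dnmt3b -0.58 (-1.35 to 0.18) with 0.93 and 0.09 against -0.35 and 0.21, and their cofactor Dnmt3l 0.46 (-0.44 to 1.36) with -3.44 and -3.08 against -3.31 and -2.29. The Dnmt3b and Dnmt3l groups overlapped, each with 1 array apart from the rest. In the list of 27 tested regulators 7 were above 0 and 20 below, with a median of -0.07. Of all tested names, 50.7% were above 0, with a median of 0.00. A shift of the regulators as a list was not tested.

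Of 36 further imprinted genes on the array, 23 were detected on both empty vector arrays, beside 63.0% of all names. None of the 24 tested was called, with 14 above 0, 10 below and a median of 0.05. An unadjusted p under 0.05 by limma was found for 2 (adjusted p = 1.00 for both). Igf2os, antisense to Igf2, was tested only through the Hdac6 vector arrays, where it is high, and read -5.71 and -5.79 against -5.22 and -4.15. Tnfrsf23, a decoy receptor gene near Kcnq1, read 1.11 and 1.33 against 0.82 and 0.20, a difference of -0.71 (-1.34 to -0.07).

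The label of the line was set against marker lists. Of 18 spermatogonial markers, 11 were detected on both empty vector arrays, beside 63.0% of all names, and Dazl, Kit, Stra8, Ret, Nanos2, Tex101 and Mael were not. Of the 11, Ddx4 was close to the detection limit (-5.69 and -5.77) and was detected on neither Hdac6 vector array, and Gfra1 on 1 of them. Markers of other cells of the testis were detected as well, 8 of 10 for Sertoli cells, 4 of 7 for Leydig cells, 11 of 12 for fibroblasts and peritubular cells, and 5 of 6 for macrophages. With a probe detected on all 4 arrays the counts were 6, 2, 11 and 5, and 9 for the spermatogonial list. The tested Fshr and Cyp11a1 probes were detected on neither Hdac6 vector array, and the Star probe on 1. The log2 of the summed level of the Sertoli list was 7.11 and 6.78 with the empty vector, against 6.60 and 7.04 with the Hdac6 vector. That sum was nearly all Wt1 (7.09 and 6.75 against 6.58 and 7.02). By gene, 7 of the 8 tested Sertoli markers were below 0, with a median of -0.32, and 4 (Sox9, Fshr, Inha and Amhr2) had Hdac6 vector arrays below both empty vector arrays, beside 12.9% of names; none was called. The log2 sum of the Leydig list was -1.39 and -1.26 against -1.32 and -0.93, and that of the fibroblast list 9.05 and 9.10 against 8.95 and 9.21. The macrophage list stood at 4.820 and 4.155 against 4.002 and 3.713. Both Hdac6 vector arrays lay below both empty vector arrays, as they did for 12.9% of single tested names. This followed Cd68 (4.51 and 3.53 against 3.32 and 2.89, a difference of -0.92), the 1 tested macrophage marker whose groups were apart. The other 4 tested macrophage markers differed by -0.06 to 0.13. Among them, the Itgam probe shared runs of at least 20 bases with the promoter windows of 78 other genes. Hybridisation of other RNAs to it was not tested. The spermatogonial list, nearly all Uchl1, stood at 4.59 and 3.52 against 3.76 and 4.07. The part of other cell types in the levels of imprinted genes was not tested.

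CpG dinucleotides, the targets of DNA methylation, were counted in the promoters. In RefSeq (GRCm38.p6) windows from 250 bases before to 50 after the start, 31 of the 39 genes had a match. The median number of CpG in a window was 14 for the 24 genes detected with the empty vector, against 14 for the 7 not detected, beside 7 for 27025 genes in the table. The medians of the detected and undetected imprinted genes were equal, and both were above that of all genes; no test was made.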

How the data were processed

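Total RNA of 4 GC-1 samples was hybridised to 1-colour Agilent mouse 8x60k arrays, which were all on 1 slide. Spot intensity was extracted with Feature Extraction 11.5.1.1 (protocol GE1_1105_Oct12) per the file headers, background-subtracted but not normalized between arrays, with probe positions in build mm9. Agilent Feature Extraction is named in the submitters' processing notes. The authors also deposited a table of log2 values, with a row for each gene name, which served as an alternative. The steps behind it are not given in the sources used here. Setting each column against its array's scanner values fixed its scale and direction, and its medians were -3.78 and -3.67 for the empty vector and -3.71 and -3.68 for the Hdac6 vector.

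Log2 intensities were averaged over repeated spots of a probe, and each array's 75th percentile over non-control probes was subtracted. Probes detected on both arrays of at least 1 group were tested (35213 of 56605). The groups were compared by limma 3.58.1 (R 4.3.3; lmFit, then eBayes with trend), two-sided, and p-values were adjusted by Benjamini-Hochberg over every tested probe. Intervals are those of that fit. A gene's brightest tested probe is that with the highest mean over all 4 arrays. A fold called "at least" sets the bright group's mean against the mean of the dim arrays, each raised to its lowest well-above-background signal. Spots above that signal were not always flagged, so such a fold is not a strict bound. The script was tested on simulated data. The number of arrays, 2 a group, limits the precision.

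The members, the lists of regulators, other imprinted genes and markers, and the tests were chosen with earlier results of these data known. Named are all 40 members, 10 imprinting regulators whatever their values (Dnmt1, Uhrf1, Dnmt3a, Dnmt3b, Dnmt3l, Zfp57, Trim28, Ctcf, Ctcfl and Dppa3), and other members of the lists that passed the test, of which there were none. Zfp42, Igf2os, Tnfrsf23 and the single marker genes were named after their values were seen. Probe genes are the names in the files. Alternatives were normexp background correction, median and quantile scaling, no filter, no trend, the replicate number as a block, leaving out each array, the deposited table, averaged probes and other rules of detection.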

Additional observations from a re-analysis of the deposited data

Results flagged for a closer look

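In the authors' deposited table, the Igf2 row stood at -4.25 and -4.17 with the empty vector and at -2.80 and -3.34 with the Hdac6 vector, a difference of 1.13 (adjusted p = 1.00 by limma), while the brightest Igf2 probe of the scanner files differed by -0.02. The row is singled out because it moved in a table outside the main measurement. The Igf2 probe near the detection limit was well above background on the empty vector arrays only. Over the imprinted genes with several probes of which some but not all were detected on an array, 35 of 35 values of the table lay within 0.01 of the mean of the detected probes, and 0 of 35 within 0.01 of the mean of all probes. On the Hdac6 vector arrays the Igf2 row was thus the value of 1 probe (-2.80 and -3.34). The mean of both probes there was -4.21 and -4.32. By the same rule the empty vector values take in both probes, so the difference of 1.13 sets 2 probes against 1.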

How the results depend on the processing

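No imprinted gene was called under any alternative run, and the number detected with the empty vector ran from 21 (4 times the lowest well-above-background signal, an alternative chosen after seeing the data) to 34 (the scanner's other flag, signal significantly above background). Over the whole array, 4 probes were called; the count was 29 with normexp background correction, 0 with median scaling, 2 with quantile normalization, 2 with no trend, 19 in the authors' deposited table, 2 with probes averaged, and 0 to 302 when 1 array was left out (302 without empty vector 2, and the cause was not tested). The replicate numbers did not pair the samples (r = -0.36 between the 2 groups' differences of array 1 and array 2 over tested probes), and with the replicate block 22 probes were called. With the crossed pairing, added after seeing the data, 15 were called. The 2 probes with a shared run are no gene's brightest, so leaving them out, an alternative added later, moves none of these values. Bounds with 1 array left out, also added later, ran from 0.920 to 2.23 for Meg3 and from 0.989 to 1.39 for Nespas. The shift of the all-probe median was 0.02, and -0.07 with median scaling and 0.11 with no filter.

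The log2 difference kept its sign under every alternative run for Ascl2, Dio3, Dlk1, Kcnq1, Mkrn3, Usp29 and Zrsr1, and turned in at least 1 for the other 22 tested genes. It turned with normexp for Igf2 (0.018), Meg3 (0.058), Peg10 (0.081), Nespas (0.031), Magel2 (0.067), Peg12 (0.075), Mcts2 (-0.032) and Airn (-0.0032), with median scaling for Grb10 (-0.057) and Mcts2 (-0.060). In the deposited table it turned for Igf2 (1.13), Grb10 (-0.091), Plagl1 (-0.20), Slc22a18 (-0.075) and Mcts2 (-0.048), and with averaged probes for Igf2 (0.027), Grb10 (-0.012), Plagl1 (-0.11) and Kcnq1ot1 (0.023). Leaving out 1 array gave -0.21 to 0.16 for Igf2, -0.52 to 0.041 for Igf2r, -0.0084 to 0.30 for Mirg, -0.079 to 0.33 for Copg2, -0.039 to 0.11 for Grb10, -0.36 to 0.17 for Ube3a, -0.28 to 0.18 for Magel2, -0.53 to 0.17 for Cdkn1c, -0.89 to 0.045 for Phlda2, -0.041 to 0.23 for Impact, -0.13 to 0.19 for Mcts2, -0.051 to 0.26 for Airn, -0.40 to 0.089 for Peg10, -1.01 to 0.67 for Kcnq1ot1, -0.47 to 0.15 for Ddc, -0.44 to 0.28 for Peg3, -0.11 to 0.32 for Gnas, -0.48 to 0.081 for Peg12 and -0.22 to 0.53 for Slc22a18.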
